A study of Mus musculus with 9 samples.

Results

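The 10 genes described here encode growth and trophic factors that macrophages can release: *Vegfa*, *Vegfb*, *Pdgfa*, *Pdgfb*, *Tgfa*, *Hbegf*, *Osm*, *Lif*, *Gdf15* and *Igf1*. They were taken by name from the 53801 genes counted, 25402 of them with a count somewhere in the series, and all 10 matched a single Ensembl identifier. RNA was sequenced from monocytes/macrophages sorted as CD11c-Ly6G-CD11b+CD45high cells of male C57BL/6J mice aged 9 weeks. In the stroke mice the distal branch of the middle cerebral artery was closed for good (dMCAO), as was the left common carotid artery. Stroke brain (the ipsilesional hemisphere) and stroke blood were collected 5 days after dMCAO, and blood of sham-operated mice served as control, with the day of sham collection not given in the sources used here. Each of the 3 groups had 3 libraries. A blood library came from 1 mouse, whereas a brain library was a pool of 5 mice. Brain cells were released by tissue dissociation and a Percoll gradient and blood cells were separated in Ficoll, so tissue, preparation and pooling cannot be told apart in any contrast of brain with blood.

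Growth factors act between cells: a ligand is secreted, or cut from the cell surface, and binds a receptor on a neighboring cell. The VEGF ligands bind receptor tyrosine kinases and neuropilins of vessels, the PDGF ligands bind receptors of pericytes and fibroblasts, and TGF-alpha and HB-EGF are membrane-anchored ligands of the EGF receptor that ADAM proteases release. Oncostatin M and LIF are cytokines of the interleukin-6 family that signal through gp130, GDF15 is a stress-induced cytokine whose receptor GFRAL sits in the hindbrain, and IGF-1 is a survival factor that microglia and macrophages supply to injured neural tissue.

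The sorted cells carried the RNA of monocytes/macrophages, with all 9 markers of that list (*Ptprc*, *Itgam*, *Csf1r*, *Adgre1*, *Cd68*, *Lyz2*, *Fcgr1*, *Ccr2* and *Ly6c2*) above 3 counts in every library. They summed to 42956 to 49474 CPM in the brain, 104760 to 111886 CPM in stroke blood and 91581 to 128313 CPM in sham blood. *Lyz2* and *Ly6c2* were called lower in the brain than in stroke blood and 0 of the 9 higher. Libraries held between 18475118 and 22623578 counts on genes, so that 3 counts, the floor used for detection, equaled 0.133 to 0.162 counts per 1000000 counts (CPM). This floor is given on library totals, whereas the levels below are CPM on TMM-scaled library sizes. The brain libraries also carried markers of microglia: all 10 were above 3 counts in every brain library, at a summed level of 1578 to 4613 CPM, against 568 to 751 CPM in stroke blood and 437 to 618 CPM in sham blood. Of these, *Sall1* had 0 counts in all 6 blood libraries and 6.23 to 20.6 CPM in the brain, and *Tmem119* rose from 2.39 to 8.20 CPM in stroke blood to 166 to 556 CPM in the brain. Dendritic cell markers, 5 of 5 above 3 counts in every brain library, summed to 204 to 324 CPM in the brain, 45.5 to 82.6 CPM in stroke blood and 71.6 to 115 CPM in sham blood. The 8 neutrophil markers summed to 740 to 1091 CPM, 427 to 774 CPM and 687 to 1792 CPM in these groups. Of the 6 tested against stroke blood *Ngp*, *Camp*, *Ltf* and *Mpo* were called higher in the brain and *Mmp8* lower. Among all genes tested 13.1% were called higher and 7.86% lower. The part of microglial, dendritic or neutrophil RNA in the values below was not tested, and in sorted bulk RNA fewer cells of a type and less RNA per cell cannot be told apart. Libraries 1 of the sham blood and of the brain stood apart from their groups. Sham blood replicate 1 held 1250 CPM of summed erythroid and 21.0 CPM of summed platelet transcripts, against 31096 and 33867 CPM and 510 and 765 CPM in the other two. Brain replicate 1 held 204.7 CPM of the fibroblast collagen gene *Col1a1*, against 0.830 and 0 CPM, and the lowest microglial sum. Several results that rest on either library are given with and without it.

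All 10 genes were higher in the stroke brain than in stroke blood by edgeR's quasi-likelihood test (adjusted p below 0.05 and log2 fold change above 1), and in each the 3 brain libraries lay above the 3 stroke blood libraries. Among all 13189 genes tested, 13.1% were called higher, 7.86% lower, and 24.9% had every brain library above every stroke blood library. The median log2 fold change was 4.63 over the 10 genes and 0.06 over all genes tested. Only 3 of the 10 (*Pdgfa*, *Pdgfb* and *Osm*) had enough counts in blood to pass the filter on low counts there. The other 7 entered the brain comparisons through the brain libraries alone, and genes that enter in that way had to differ, so the count is a description. Against sham blood all 10 were again called higher, where 9.75% of 13020 genes tested were (3.67% lower), and again no brain library overlapped sham blood in any of them (22.1% of genes tested), with a median log2 fold change of 4.86 against 0.01 over all genes tested. Both contrasts use the same 3 brain libraries and are not independent. The libraries of a group are separate mice or pools, and the p-values measure the spread between them.

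**Figure D1:**
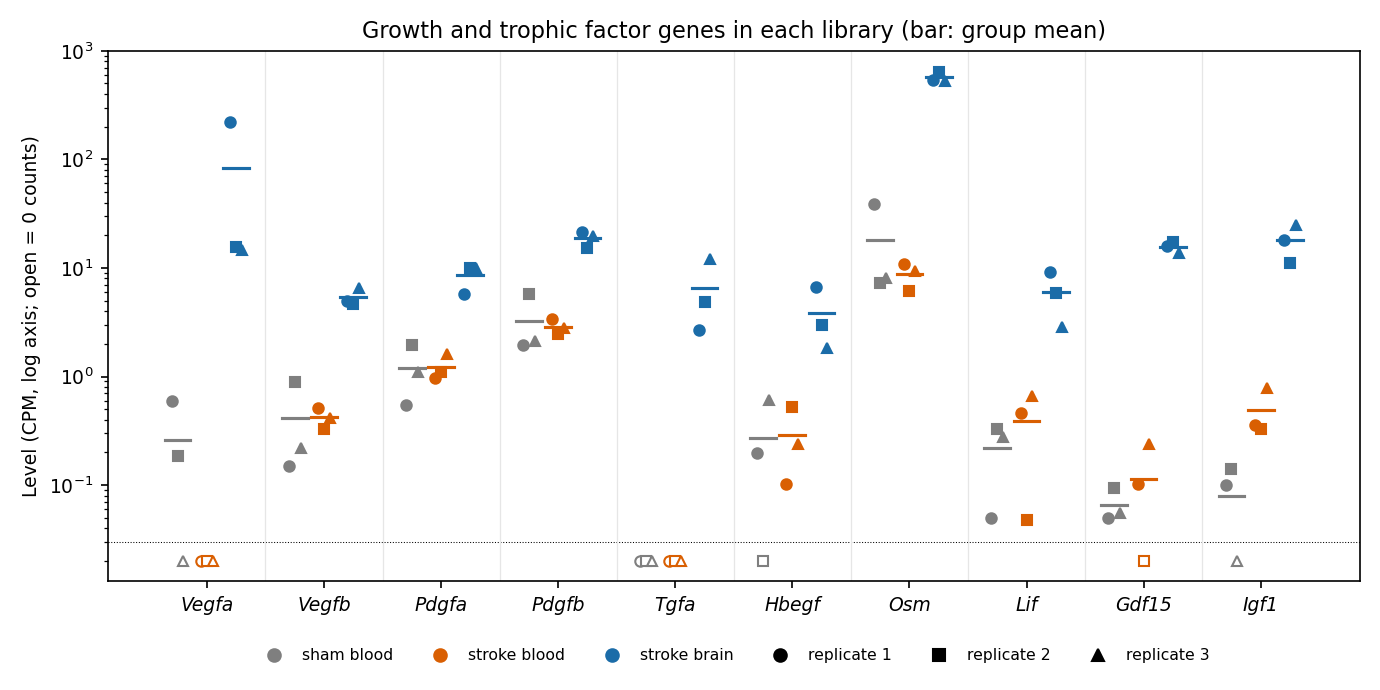
Level of each of the 10 factor genes in each of the 9 libraries, in CPM on a log axis, with group means as bars, replicates as marker shapes and libraries with 0 counts as open symbols under the dotted line. In every gene the 3 brain libraries (blue) sit above the 6 blood libraries, and *Osm* in the brain, at 529 to 641 CPM, is the highest set of points.

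RefSeq promoters of GRCm38.p6, the 250 bases before a start site, were at hand for 7 of the 10 genes (10 promoters). Those at the start of *Vegfa*, *Tgfa* and *Gdf15*, the 3 genes with the fewest counts in blood, and of *Lif*, chosen for its motif match, are shown, written 5′ to 3′ with a matched motif in capitals.
*Vegfa*, chr17:46032378-46032627, minus strand: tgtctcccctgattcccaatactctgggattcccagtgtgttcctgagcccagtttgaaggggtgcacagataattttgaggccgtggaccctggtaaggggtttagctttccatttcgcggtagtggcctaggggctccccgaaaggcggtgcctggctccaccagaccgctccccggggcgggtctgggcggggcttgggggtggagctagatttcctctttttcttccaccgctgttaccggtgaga
*Tgfa*, chr6:86194972-86195221, plus strand: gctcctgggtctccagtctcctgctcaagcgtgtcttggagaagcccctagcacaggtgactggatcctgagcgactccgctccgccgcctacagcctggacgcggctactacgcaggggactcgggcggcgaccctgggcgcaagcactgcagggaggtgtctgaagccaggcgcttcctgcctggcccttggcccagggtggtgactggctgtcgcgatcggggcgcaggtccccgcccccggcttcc
*Lif*, chr11:4257318-4257567, plus strand: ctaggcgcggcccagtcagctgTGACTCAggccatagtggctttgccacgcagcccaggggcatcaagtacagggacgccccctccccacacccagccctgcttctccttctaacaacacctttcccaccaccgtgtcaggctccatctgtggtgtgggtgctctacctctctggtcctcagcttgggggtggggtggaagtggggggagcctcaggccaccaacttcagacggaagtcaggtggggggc
*Gdf15*, chr8:70632457-70632706, minus strand: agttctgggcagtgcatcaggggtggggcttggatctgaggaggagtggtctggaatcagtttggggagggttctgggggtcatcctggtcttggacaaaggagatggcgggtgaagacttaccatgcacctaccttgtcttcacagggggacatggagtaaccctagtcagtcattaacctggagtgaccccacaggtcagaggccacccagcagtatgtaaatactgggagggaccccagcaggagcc
The capitals in *Lif* are the only match in these 4 windows to any of 7 motifs searched on both strands: ACGTG (the core of the hypoxia response element), TGANTCA (AP-1), TGACGTCA (cyclic AMP response element), GCGNGGGCG (EGR1), TTCNNNGAA (STAT), TGATGCAA (an ATF4 site) and the serum response element. TGANTCA lies at bases -228 to -222 of the *Lif* promoter, counted from the start site, and 6.75% of 32851 promoters hold it in the same length, while ACGTG is in 16.6% of them. Of the other promoters, an internal start of *Vegfa* and a second start of *Gdf15* held ACGTG, the *Vegfb* promoter held GCGNGGGCG (4.7% of promoters), and an internal start of *Igf1* held TGANTCA. A match describes letters only, and these data do not measure binding.

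*Vegfa* (ENSMUSG00000023951, GRCm38 chr17:46016993-46032369, minus strand) encodes the main angiogenic and vessel-permeability factor. It had 4539, 378 and 337 counts in brain replicates 1, 2 and 3, which equal 221, 15.7 and 14.7 CPM on TMM-scaled library sizes. All 3 stroke blood libraries had 0 counts, which allows up to 0.139 to 0.162 CPM on library totals, before TMM scaling. The sham blood libraries had 12, 4 and 0 counts. Every brain library was thus far above every blood library, but replicate 1 was 15.1 times the lowest of its group, and the brain mean of 83.8 ± 119 CPM (SD, n = 3) describes no single library. Against 3 counts per stroke blood library the brain level was at least 530-fold higher (adjusted p = 0.00418), and at least 96.0-fold higher without brain replicate 1 (adjusted p = 8.22e-05). Against sham blood the log2 fold change was 8.27 (SE 1.54, adjusted p = 0.0105), 5.80 without brain replicate 1 and 9.64 without sham blood replicate 1. DESeq2 gave no adjusted p for *Vegfa* in either contrast, as its filter on single extreme counts set it aside.

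*Vegfb* (ENSMUSG00000024962, chr19:6982473-6987651, minus strand), a relative of *Vegfa* linked to endothelial lipid uptake and cell survival, was low and even. It had 101, 111 and 150 counts in the brain libraries, 10, 7 and 7 in stroke blood and 3, 19 and 4 in sham blood. The brain mean was 5.35 ± 1.04 CPM against 0.420 ± 0.0889 CPM in stroke blood and 0.418 ± 0.405 CPM in sham blood (SD, n = 3 each). The groups of brain and blood did not overlap, and the log2 fold change was 3.69 (SE 0.45, adjusted p = 0.00045) over stroke blood and 3.64 (SE 0.65, adjusted p = 0.00905) over sham blood. Leaving out sham blood replicate 2, the highest of its group, gave 4.80. Per transcript length (TPM, transcripts per 1000000), *Vegfa* was 16.7 times *Vegfb* in brain replicate 1 but 1.26 and 0.834 times in replicates 2 and 3. These ratios depend on the transcript chosen: with the median in place of the longest annotated transcript they were 59.5, 4.51 and 2.98, so that *Vegfa* was the higher of the pair in all 3 libraries.

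*Pdgfa* (ENSMUSG00000025856, chr5:138976014-138997370, minus strand) and *Pdgfb* (ENSMUSG00000000489, chr15:79995874-80014977, minus strand) encode the chains of platelet-derived growth factor, a mitogen of mesenchymal cells that recruits pericytes to vessels. Both had counts in every library, blood included. *Pdgfa* had 119, 241 and 227 counts in the brain, 19, 23 and 27 in stroke blood and 11, 42 and 20 in sham blood. *Pdgfb* had 444, 371 and 447 counts in the brain, 66, 52 and 47 in stroke blood and 39, 124 and 38 in sham blood. Among blood libraries sham replicate 2 was the highest for both genes, and it still lay below each brain library. *Pdgfa* rose over stroke blood by 2.84 on the log2 scale (SE 0.40, adjusted p = 0.000928) and over sham blood by 2.82 (SE 0.50, adjusted p = 0.00874). *Pdgfb* rose by 2.74 (SE 0.28, adjusted p = 0.000174) and 2.52 (SE 0.45, adjusted p = 0.00874), the latter 3.21 without sham blood replicate 2. These were the smallest fold changes of the 10 genes in either contrast. Platelets carry PDGF, and the 10 platelet markers summed to 36.2 to 79.9 CPM in the brain and 379 to 457 CPM in stroke blood. In sham blood they summed to 21.0, 510 and 765 CPM in replicates 1, 2 and 3. *Pf4* alone gave 31.9, 53.0 and 74.1 CPM of the sums in brain replicates 1, 2 and 3. The other 9 platelet markers were called lower in the brain than in stroke blood, where 7.86% of all genes tested were. The part of platelet RNA in the PDGF values was not tested. The ratio of *Pdgfb* to *Pdgfa* in TPM was 1.08 to 2.61 in the brain and 1.22 to 2.43 in stroke blood, which overlap. The exons of *Pdgfa* overlap 6330403L08Rik on the opposite strand, a gene with at most 19 counts in a library. The strand setting of the counting is not given in the sources used here, so a share of the *Pdgfa* counts is uncertain. That share need not be small in blood, where *Pdgfa* had 11 to 42 counts.

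*Tgfa* (ENSMUSG00000029999, chr6:86195223-86275719, plus strand), which encodes TGF-alpha, a mitogen of epithelia and astrocytes, had no count in any blood library. The brain libraries had 55, 117 and 276 counts, or 2.68, 4.86 and 12.02 CPM, with replicate 3 on top and replicate 1 lowest. Against 3 counts per library, the brain was at least 41.2-fold higher than stroke blood (adjusted p = 0.00109) and at least 43.0-fold higher than sham blood (adjusted p = 0.00573). Without brain replicate 3 the bounds were 23.8-fold and 24.8-fold. The 0 counts of sham blood allow up to 0.141 to 0.162 CPM on library totals, before TMM scaling.

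*Hbegf* (ENSMUSG00000024486, chr18:36504929-36515805, minus strand), which encodes heparin-binding EGF-like growth factor, had 137, 72 and 42 counts in the brain, 2, 11 and 4 in stroke blood and 4, 0 and 11 in sham blood. The brain libraries were all higher than the blood libraries, with replicate 1 on top and replicate 3 lowest, the reverse of *Tgfa*. The log2 fold change over stroke blood was 3.72 (SE 0.75, adjusted p = 0.00552), with 3.05 without brain replicate 1 and 4.48 without stroke blood replicate 2. Over sham blood it was 3.84 (SE 1.00, adjusted p = 0.0329), and this call was the least stable among those of the 10 genes. It was lost without sham blood replicate 1 (adjusted p = 0.0912), sham blood replicate 2 (0.0564), brain replicate 1 (0.0779) or brain replicate 2 (0.0688), while the estimate stayed between 3.17 and 5.21 over the 6 libraries left out in turn, highest without sham blood replicate 3. The 2 EGF receptor ligands changed order between brain libraries: in TPM, *Hbegf* was 3.90, 0.964 and 0.238 times *Tgfa* in replicates 1, 2 and 3, and 1.55, 0.384 and 0.0949 times with the median transcript length.

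*Osm* (ENSMUSG00000058755, chr11:4236420-4241026, plus strand), which encodes oncostatin M, a product of activated myeloid cells, had the highest TPM of the 10 genes in every library. It had 11070, 15448 and 12149 counts in the brain, or 539, 641 and 529 CPM, with a mean of 569.8 ± 61.9 CPM. Stroke blood had 212, 128 and 155 counts (8.71 ± 2.42 CPM) and sham blood 785, 156 and 146 counts (18.1 ± 18.1 CPM). The brain libraries were close together, and in sham blood replicate 1, at 39.0 CPM, lay apart from 7.26 and 8.08 CPM. The log2 fold change over stroke blood was 6.07 (SE 0.25, adjusted p = 1.31e-06), the smallest adjusted p of the 10 genes. Over sham blood it was 4.97 (SE 0.69, adjusted p = 0.00378), and 6.21 without sham blood replicate 1. That sham library also held 183 CPM of the immediate early gene *Egr1*, against 11.5 and 7.52 CPM in the other sham libraries. The 14 immediate early genes listed below differed less as a whole, with sums of 4327 CPM in replicate 1 against 2675 and 1901 CPM. A link to the *Osm* level was not tested.

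*Lif* (ENSMUSG00000034394, chr11:4257557-4272514, plus strand), which encodes leukemia inhibitory factor, is the next of the 10 genes along chromosome 11 on the same strand as *Osm*, and was far lower. It had 189, 143 and 65 counts in the brain, 9, 1 and 11 in stroke blood and 1, 7 and 5 in sham blood. The brain mean was 5.99 ± 3.19 CPM against 0.388 ± 0.311 and 0.217 ± 0.147 CPM. The lowest brain library, replicate 3 with 2.83 CPM, was above the highest blood library. The log2 fold change was 4.01 (SE 0.76, adjusted p = 0.00421) over stroke blood and 4.74 (SE 0.71, adjusted p = 0.00497) over sham blood. Without brain replicate 1 these were 3.56 and 4.29. In the brain *Osm* was 104, 191 and 331 times *Lif* in TPM in replicates 1 to 3.

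*Gdf15* (ENSMUSG00000038508, chr8:70629393-70632456, minus strand), which encodes growth differentiation factor 15, went from near absence in blood to an even level in the brain. It had 324, 418 and 318 counts in the brain, 2, 0 and 4 in stroke blood and 1, 2 and 1 in sham blood. The brain mean was 15.7 ± 1.75 CPM, and no blood library passed 0.239 CPM. The pooled counts gave a ratio of brain to stroke blood of 150 (95% exact interval 68.8 to 410, counting error only; edgeR adjusted p = 5.88e-05) and of brain to sham blood of 234 (91.1 to 860; adjusted p = 0.000141). The log2 fold change over stroke blood was 7.16 (SE 0.60), with 6.51 without stroke blood replicate 2 and 8.15 without replicate 3.

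*Igf1* (ENSMUSG00000020053, chr10:87858265-87937042, plus strand), which encodes insulin-like growth factor 1, had 369, 265 and 571 counts in the brain, 7, 7 and 13 in stroke blood and 2, 3 and 0 in sham blood. Every brain library (17.9 ± 6.94 CPM) lay above those of stroke blood (0.489 ± 0.251 CPM) and sham blood (0.0797 ± 0.0719 CPM). Every stroke blood library also lay above every sham library, as in 9.77% of genes tested between the blood groups. The sham counts did not pass the floor of 3 counts, however, and *Igf1* had too few counts for the test between the blood groups. The log2 fold change of brain over stroke blood was 5.25 (SE 0.47, adjusted p = 8.82e-05), a pooled ratio of 37.9 (25.9 to 57.8, counting error only). Against sham blood the pooled ratio was 213 (90.9 to 656; adjusted p = 0.000515), and the log2 fold change of 7.65 became 8.26 without sham blood replicate 2.

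**Figure D2:**
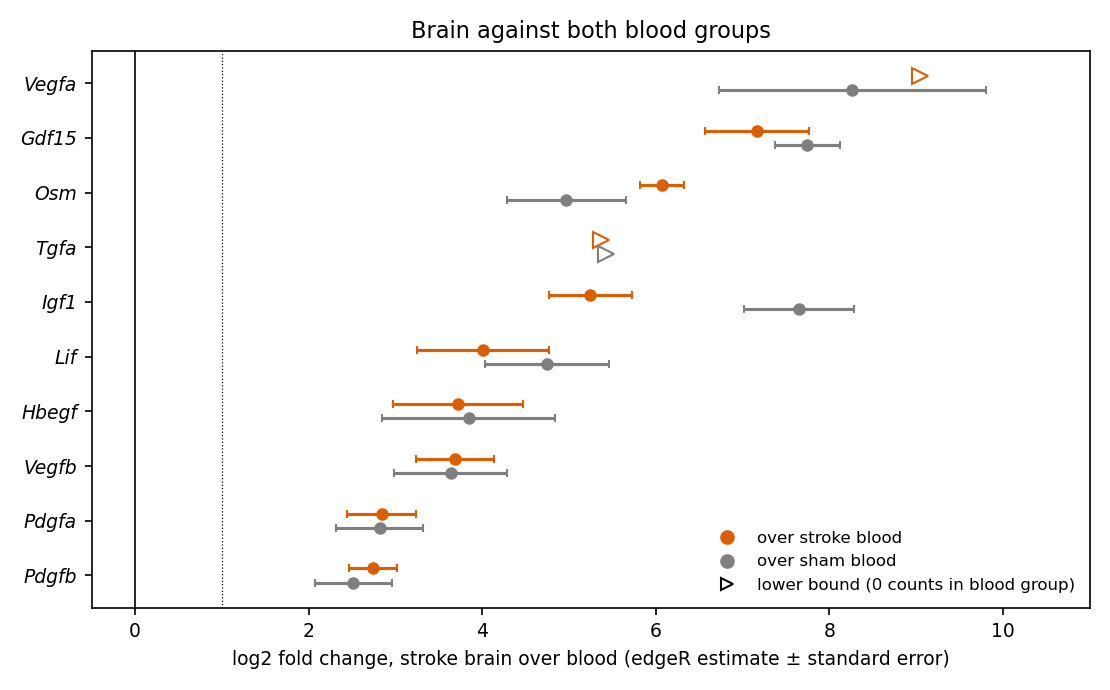
Log2 fold change of stroke brain over stroke blood (orange) and over sham blood (grey) for the 10 genes, as edgeR's estimate with its standard error, or as an open triangle at the lower bound where the blood group had 0 counts; the dotted line marks a log2 fold change of 1. The estimates run from 2.52 for *Pdgfb* over sham blood to 8.27 for *Vegfa* over sham blood, and the bound for *Vegfa* over stroke blood lies above them.

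Per length of the longest annotated transcript, *Osm* led the brain by a wide margin, at 557 ± 56.8 TPM. It made up 71.2%, 89.1% and 86.2% of the TPM summed over the 10 genes in brain replicates 1, 2 and 3. With the median transcript length the brain means of *Osm* and *Vegfa* were 404 ± 39.8 and 106 ± 151 TPM, and the share was not computed for it. *Vegfa* came next by its mean of 55.4 ± 79.3 TPM, but its range of 9.27 to 147 TPM covered that of *Gdf15* (22.5 ± 2.66 TPM). *Gdf15*, *Pdgfb* (14.2 ± 2.69 TPM) and *Vegfb* (9.27 ± 1.66 TPM) followed in that order with ranges that did not overlap. From *Vegfb* down, each gene overlapped its neighbor: *Pdgfa* (9.19 ± 2.37 TPM), *Igf1* (5.65 ± 2.14 TPM), *Lif* (3.34 ± 1.86 TPM), *Tgfa* (3.17 ± 2.32 TPM) and *Hbegf* (2.98 ± 2.05 TPM). With the median in place of the longest annotated transcript, *Igf1* moved from rank 7 to rank 4, *Gdf15* from 3 to 5 and *Pdgfb* from 4 to 3. *Vegfb* moved from 5 to 7, *Lif* from 8 to 10, *Tgfa* from 9 to 8 and *Hbegf* from 10 to 9. *Osm*, *Vegfa* and *Pdgfa* kept ranks 1, 2 and 6. The order of *Gdf15*, *Pdgfb* and *Vegfb* thus depends on the transcript length used. Summed over the 10 genes the level was 845, 729 and 635 CPM in brain replicates 1, 2 and 3 and 10.9 to 16.7 CPM in stroke blood. In sham blood it was 42.7 CPM in replicate 1 and 16.6 and 12.4 CPM in replicates 2 and 3. All 10 genes were above 3 counts in every brain library, against 6 to 8 in stroke blood and 5 or 6 in sham blood.

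The brain libraries differed among themselves in gene-specific ways. Replicate 1 was the highest of the 3 for *Vegfa*, *Pdgfb*, *Hbegf* and *Lif* and the lowest for *Pdgfa* and *Tgfa*, whereas over 12867 genes above 20 counts in a brain library it was the highest for 36.8% and the lowest for 42.4%. *Vegfa*, *Hbegf* and *Lif* were highest in replicate 1 and lowest in replicate 3, and *Tgfa* ran the other way, as did *Tmem119* with 166, 294 and 556 CPM. *Osm* and *Gdf15* varied least, between 529 and 641 CPM and between 13.9 and 17.3 CPM. Replicate 1 was the highest library for 5 of 5 pericyte and fibroblast markers that passed 20 counts, at a summed 350 CPM of the whole list of 6 against 1.52 and 8.72 CPM, and it was the lowest for 8 of 10 microglial markers. The choroid plexus gene *Ttr*, with 0 counts in blood, had 85.7, 13.9 and 41.1 CPM. Of 16 hypoxia response genes, among whose known targets *Vegfa* counts, replicate 1 was the highest for 5 and the lowest for 7. It was the highest for 5 and the lowest for 1 of 8 integrated stress response genes that passed 20 counts. Of 14 immediate early genes it was the highest for 7 and the lowest for 5. All 5 dendritic cell markers were highest in replicate 1, and *Mpo* had 144, 42.2 and 17.8 CPM in replicates 1 to 3. The part of these other transcripts in the *Vegfa* level of replicate 1 was not tested.

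**Figure D3:**
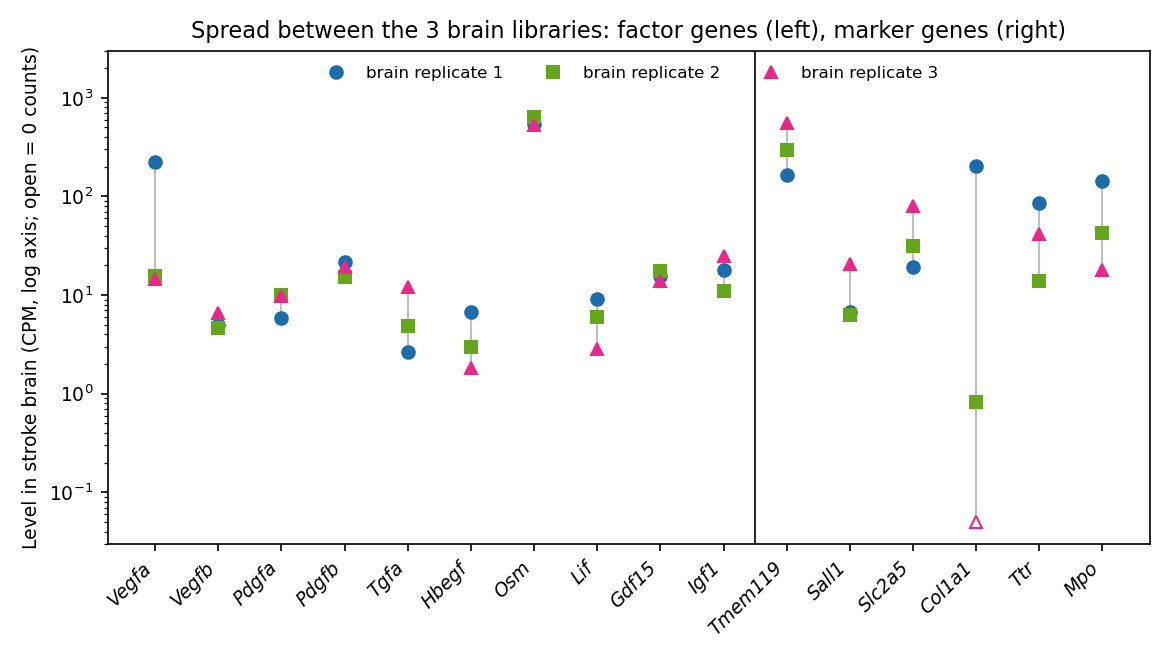
Level of the 10 factor genes (left of the line) and of marker genes of microglia (*Tmem119*, *Sall1*, *Slc2a5*), fibroblasts (*Col1a1*), choroid plexus (*Ttr*) and neutrophil precursors (*Mpo*) in the 3 brain libraries, in CPM on a log axis, with 0 counts as an open symbol. *Vegfa* (221 CPM) and *Col1a1* (204.7 CPM) in replicate 1 stand far above the other brain libraries, while the points of *Osm* and *Gdf15* lie close together.

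In blood, stroke and sham libraries could be compared by test for 3 of the 10 genes, and edgeR called none of them. None of the 3 had an unadjusted p below 0.05, and DESeq2 called none either. Over all 12664 genes tested, 0.0079% (1 gene) were called higher and 0 lower, 1581 had an unadjusted p below 0.05, and DESeq2 called 61 higher and 66 lower. *Pdgfa* differed by -0.02 on the log2 scale (SE 0.55, adjusted p = 0.993), *Pdgfb* by -0.22 (SE 0.48, adjusted p = 0.861) and *Osm* by -1.10 (SE 0.60, adjusted p = 0.477), stroke minus sham. The *Osm* difference was 0.15 without sham blood replicate 1, and those of *Pdgfa* and *Pdgfb* were 0.53 and 0.47 without sham blood replicate 2. The sign of *Pdgfa* also turned without stroke blood replicate 1 (0.11) or 2 (0.017). Of the 7 genes under the filter, *Igf1* alone had every stroke library above every sham library, where 9.77% of the genes tested did. Its pooled counts were 27 against 5, a ratio of 5.61 (95% exact interval 2.13 to 18.7, counting error only), and without the filter edgeR gave a log2 fold change of 2.41 with an adjusted p of 0.420. A change in blood of *Vegfb*, *Hbegf*, *Lif* or *Gdf15* was not detectable at this depth, with pooled ratios between 0.959 and 1.68 whose counting intervals include 1. *Vegfa* had 16 counts in sham and 0 in stroke blood, with a library at 0 in both groups, and *Tgfa* was at 0 in both.

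Of the 16 receptor genes of these ligands, 7 had too few counts to test between brain and stroke blood. Of the 9 tested 2 were called, both higher, where 13.1% of all genes tested were called higher and 7.86% lower. Both were called over sham blood as well, where 9.75% of all genes tested were called higher. The median log2 fold change of the 9 was 0.06, as it was over all genes tested. *Kdr*, the main signaling receptor of VEGF-A, had 3.75, 5.40 and 8.10 CPM in the brain and at most 0.142 CPM in stroke blood (log2 fold change 5.73, SE 0.61, adjusted p = 0.000226). Within blood 8 of the receptor genes passed the filter on low counts. *Kdr*, with at most 3 counts in a stroke blood library, entered through the brain libraries alone, so its call is a description. The neuropilin gene *Nrp2* had 18.6 to 25.1 CPM in the brain and 3.97 to 9.39 CPM in stroke blood (1.73, SE 0.32, adjusted p = 0.00374). *Nrp2* rose over sham blood by 1.00 on the log2 scale, at the edge of the fold threshold (adjusted p = 0.0463), and 9 of 14 alternatives took this call away. Not called over stroke blood were the VEGF receptor *Flt1* (-0.62, adjusted p = 0.0885), *Nrp1* (-0.19, adjusted p = 0.437), *Pdgfrb* (1.37, adjusted p = 0.112) and *Erbb3* (0.07, adjusted p = 0.905). Nor were *Lifr* (0.06, adjusted p = 0.899), the gp130 gene *Il6st* (-0.24, adjusted p = 0.506) and *Igf1r* (-0.35, adjusted p = 0.493) called. *Lifr*, which pairs with gp130 for LIF, was at 28.0 to 57.3 CPM in the brain and *Il6st* at 54.6 to 77.1 CPM. The other chains were at or near 0: *Osmr*, the specific receptor of oncostatin M, had 0 counts in 8 libraries and 0.487 CPM in brain replicate 1, *Pdgfra* had 0.195 CPM in that library alone, and *Erbb4* and *Gfral* had 0 counts in all 9. *Egfr* reached 1.56 CPM in brain replicate 1, 0.741 CPM in replicate 3 and 0 in replicate 2.

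**Figure D4:**
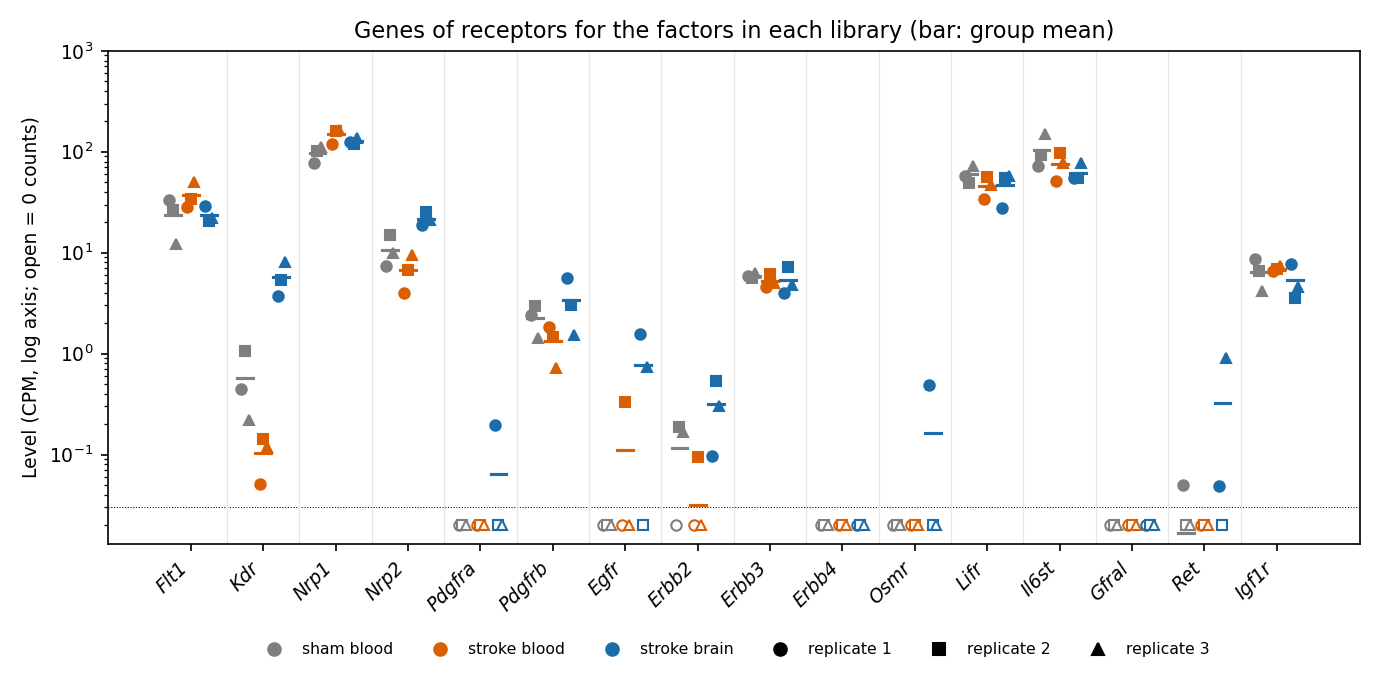
Level of 16 receptor genes in each of the 9 libraries, in CPM on a log axis, with group means as bars and 0 counts as open symbols under the dotted line. *Nrp1*, *Lifr* and *Il6st* lie at like levels in the 3 groups, *Kdr* and *Nrp2* are higher in the brain, and *Osmr*, *Gfral* and *Erbb4* are at or near 0.

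Among 27 other growth factors and related genes, 11 were tested between brain and stroke blood. Of these 5 were called, all higher, where 13.1% of all genes tested were. The called genes were *Csf1* (macrophage colony-stimulating factor, log2 fold change 2.11), *Clcf1* (2.58) and *Il6* (2.85), both of the gp130 family, *Areg* (amphiregulin, an EGF receptor ligand, 5.05), and *Pdpn*, a membrane glycoprotein and not a secreted factor, at 4.90 to 8.23 CPM in the brain and at most 0.102 CPM in blood. The median over the 11 tested was 1.30. *Areg* and *Pdpn*, with at most 8 and 2 counts in a blood library, entered through the brain libraries alone, so their calls are a description. Over sham blood 4 of the 5 were called, and *Csf1* was not (1.23, adjusted p = 0.0621), where 9.75% of all genes tested were called higher. *Grn*, which encodes progranulin, was the most abundant at 1611 to 2479 CPM in the brain and 1466 to 1868 CPM in stroke blood, and was not called (0.37, adjusted p = 0.165). *Hgf* (0.92, adjusted p = 0.065), *Vegfc* (0.26, adjusted p = 0.798) and *Pgf* (1.30, adjusted p = 0.235) were not called. *Vegfd*, *Ereg*, *Epgn*, *Il11*, *Cntf*, *Igf2* and *Fgf7* had 0 counts in all 9 libraries.

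Of 20 genes for shedding, processing and binding of growth factors, 11 were tested between brain and stroke blood. Of these 4 were called, all higher, where 13.1% of all genes tested were. *Adam8*, a myeloid metalloprotease, had 369, 435 and 334 CPM in the brain and 15.4, 34.8 and 16.0 CPM in stroke blood (log2 fold change 4.12, SE 0.34, adjusted p = 5.88e-05). *Adam9* (1.18), *Igfbp4* (1.77) and *Igfbp2* (4.85), the latter pair encoding binding proteins of IGF, were the others. *Igfbp2*, with at most 4 counts in a blood library, entered through the brain libraries alone, so its call is a description. *Adam17*, the main sheddase of TGF-alpha and HB-EGF, had 161 to 203 CPM in the brain and 104 to 169 CPM in stroke blood and was not called (0.55, adjusted p = 0.0738). The median log2 fold change of the 11 tested was 0.97. Over sham blood 3 genes were called, all higher, where 9.75% of all genes tested were. They were *Adam8* (2.85), *Igfbp2* and *Rhbdf1*, the last a cofactor of ADAM17 (1.45, adjusted p = 0.0434).

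Pathways known to raise some of these ligands were described by 3 further lists. Among all genes tested 13.1% were called higher and 7.86% lower over stroke blood, and 9.75% and 3.67% over sham blood. Of 16 hypoxia response genes 15 were tested in either contrast. Over stroke blood 4 were called higher (*Hif1a* 1.48, *Ero1a* 1.24, *Egln3* 1.97 and *Ankrd37* 1.59) and *Ndrg1* lower (-1.98, adjusted p = 9.65e-05). Over sham blood 2 were called higher (*Egln3* and *P4ha2*) and *Ndrg1* lower. *P4ha2*, with at most 9 counts in a blood library, entered through the brain libraries alone, so its call is a description. Of 10 integrated stress response genes, the pathway *Gdf15* is known to follow, 8 were tested and 5 were called higher over stroke blood: *Atf3* (3.33), *Ppp1r15a* (2.77), *Psat1* (1.01), *Ddit3* (1.28) and *Asns* (1.31). *Atf3* had 836 to 883 CPM in the brain and 75.2 to 94.4 CPM in stroke blood. Over sham blood 3 of them were called, *Atf3*, *Ppp1r15a* and *Ddit3*. Of 14 immediate early genes all 14 were tested, and 10 were called higher over stroke blood and 9 over sham blood. *Fosl1* and *Egr3*, with at most 6 and 14 counts in a blood library, entered through the brain libraries alone, so their calls are a description. The most abundant of those called over stroke blood were *Dusp1* (2.11), *Fos* (1.61), *Junb* (2.18), *Jun* (1.94), *Egr1* (4.79) and *Ier3* (2.99). The median log2 fold change over stroke blood was 0.94, 1.20 and 2.16 over the tested genes of the hypoxia, integrated stress and immediate early lists. The immediate early genes summed to 9414 to 13039 CPM in the brain and 2686 to 3804 CPM in stroke blood. Such genes respond within minutes to many stimuli, tissue dissociation among them, and the part of cell preparation in the levels of the 10 factor genes was not tested. Between the blood groups edgeR called none of the 61 genes tested of these 6 lists, where 8 had an unadjusted p below 0.05 and DESeq2 called 1, *Adam8*, which was lower in stroke blood.

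**Figure D5:**
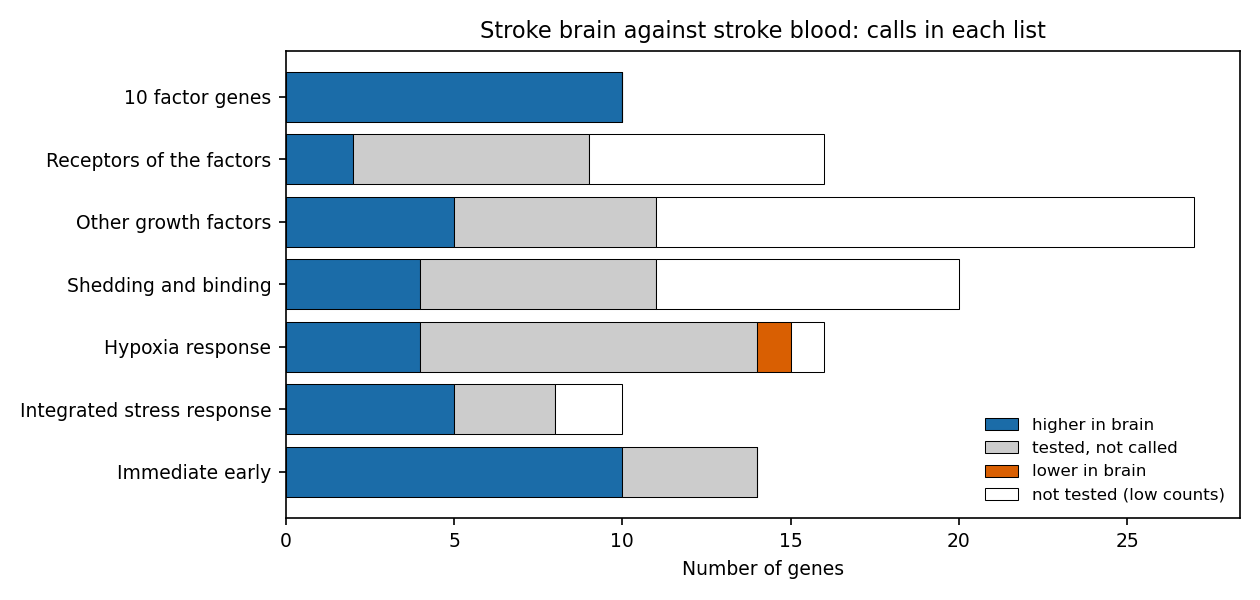
Number of genes called higher (blue), called lower (orange), tested without a call (grey) or not tested for low counts (white) between stroke brain and stroke blood, for the 10 factor genes and 6 lists of related genes. The bar of the 10 factor genes is blue throughout, and that of the receptors holds 2 blue, 7 grey and 7 white genes. Among all genes tested, 13.1% were called higher and 7.86% lower.

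The genes whose profile over the 9 libraries was nearest to that of a factor gene were found by the root mean square (RMS) difference of centered log2(CPM + 1) values, among 9028 genes with a mean of at least 5 CPM. The nearest to *Osm* were *Ptgs2* (RMS 0.37), *Cxcl16* (0.65) and *Arg1* (0.66), all low in blood, with brain means of 89.9, 244 and 59.7 CPM. *Gdf15* lay nearest to *Flrt3* (0.21), which had 0 counts in blood, and *Acod1* (0.25). *Vegfa* lay nearest to *Prg2* (0.57), *Nr4a2* (0.59) and *Ttr* (0.69), at larger distances than those of the first gene for any other member. *Tgfa* lay nearest to *Ctsf* (0.27) and *St3gal6* (0.29). *Igf1* lay nearest to *Rnf180* (0.35) and then to *Gdf15* (0.38), and *Pdgfb* was the second nearest to *Vegfb* (0.20), after *Prdm1* (0.19). *Pdgfa* lay nearest to *Galnt1* (0.21), *Pdgfb* to *Man1c1* (0.23), *Hbegf* to *Rabgef1* (0.27) and *Lif* to *Jak2* (0.31). All these profiles rise from blood to brain, but not by like folds, as the added 1 CPM shrinks the step of genes low in blood. *Tgfa*, at 0 in blood and a mean of 6.52 CPM in the brain, lay nearest to *Ctsf*. The means of *Ctsf* were 3.14 CPM in stroke blood and 32.3 CPM in the brain. The distances describe these 9 libraries only.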

How the data were processed

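RNA-seq counts of 9 libraries were used: 3 of sham blood, 3 of stroke blood and 3 of stroke brain, grouped by the tissue and surgery in their labels. The authors made cDNA with SMART-Seq HT, built Nextera XT libraries and sequenced them as paired-end reads. Reads were checked with FastQC in Chipster, mapped to GRCm38 with HISAT2 and counted per gene with HTSeq, as the paper and the submitters' processing notes give it. The deposited values are raw read counts per gene, without normalization. Software versions, annotation release and strand setting are not given in the sources used here. Total counts were 18475118 to 22623578 per library. Counts of libraries within a group were further apart than sampling alone gives (26.2 to 152 times, as chi-square over its degrees of freedom), and each library was its own replicate. No molecular identifiers were used, so exact intervals and the floor of 3 counts cover counting error only.

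Symbols, coordinates and transcript lengths came from GENCODE M21: 53706 of 53801 identifiers were in it, and coordinates were identical for 52105. Of 202 listed genes 200 were found once by symbol, *Ero1a* was found under the older symbol Ero1l, and for *Ddit3* the identifier with counts was taken from a pair. Promoters came from RefSeq (GRCm38.p6). Levels are CPM on TMM-scaled library sizes and TPM on the longest transcript.

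Groups were compared pairwise with edgeR 4.0.16 in R 4.3.3 (TMM, default low-count filter, quasi-likelihood test, Benjamini-Hochberg adjustment over all genes tested). A gene was called at an adjusted p below 0.05 and an absolute log2 fold change above 1. The SE is the log2 fold change over the square root of F. Where a group had 0 counts throughout, the fold is a lower bound against 3 counts per library. The fits were tested on simulated data. Alternatives were DESeq2 1.42.0, RLE and library-size scaling, no filter, a joint fit of the 9 libraries, the replicate number as block, other thresholds, each library left out, library-total CPM and median transcript length. Summaries were written in Python 3.11.15 (matplotlib 3.10.9 for plots, with pandas 2.3.3, numpy 2.4.6, scipy 1.17.1).

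The genes and lists were chosen with earlier results of these data known. All 10 factor genes are named, as are up to 6 called genes of each list by mean CPM, all receptors with counts enough to test, and the nearest profiles. Other genes of the lists that are named were chosen after their values were seen. Results for some genes of the lists are not reported here.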

Additional observations from a re-analysis of the deposited data

How the results depend on the processing

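Over stroke blood, all 10 factor genes were called higher under each alternative except DESeq2, which called 9 and gave *Vegfa* no adjusted p. Over sham blood 10 were called with RLE or library-size scaling, without a filter, in a fit of all 9 libraries and without a fold threshold, 9 with DESeq2, 9 to 10 with a library left out and 8 at an adjusted p below 0.01 (without *Vegfa* and *Hbegf*). In blood no alternative called a factor gene. Libraries with the same replicate number did not deviate together (correlations of same-numbered deviations -0.0702 to 0.0663). This cannot show whether stroke blood and brain came from the same mice. With the replicate number as a block, 10 were called over stroke blood and 9 over sham blood, *Hbegf* having an adjusted p of 0.0631, and between the blood groups the *Pdgfa* difference turned to 0.12.

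The other differences that changed sign lay between the blood groups and were uncalled: *Pdgfa* was 0.00018 with RLE scaling, 0.015 in the fit of all 9 libraries and -0.37 to 0.53 with a library left out, where *Pdgfb* was -0.49 to 0.47 and *Osm* -1.48 to 0.15. Over all genes, 1 was called higher in stroke than sham blood: DESeq2 gave 61, no filter 59, the block 0, an adjusted p below 0.01 gave 0, and leaving out a library 0 to 1. Lower were 0: DESeq2 gave 66, no filter 101, the block 1, leaving out a library 0 to 15 (15 without sham blood replicate 1). For brain below stroke blood (1037 genes), no fold threshold gave 1727 and an adjusted p below 0.01 gave 598. For brain against sham blood (1270 higher, 478 lower), an adjusted p below 0.01 gave 610 and 182, no fold threshold 1000 lower, and leaving out a library 277 to 669 lower. The causes were not tested.

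Depth limits the blood values: a gene at 0 counts may lie at up to 0.162 CPM on library totals, before TMM scaling, and the filter kept 3 of 10 factor genes within blood. The TPM of *Vegfb*, *Osm*, *Gdf15* and *Igf1* moved by more than an SD with the median transcript length (to 4.99, 404, 11.6 and 14.2).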
